A study of Homo sapiens with 4 samples.

Results

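The genes described here sense nucleic acid in the cytosol or in endosomes, relay that signal, or remove the nucleic acid that would set it off. They are 10 genes taken by symbol: IFI16, MB21D1 (also called CGAS), ZBP1, TLR3, TMEM173 (also called STING1), MAVS, TBK1, IRF3, TREX1 and SAMHD1. Each was found by symbol in the deposited tables as 1 of 53826 entities, and 9 of the 10 were above the lowest listed value in all 4 libraries. ZBP1 was listed at 0 in every library.

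The libraries were made from PK-1, an established human line from a pancreatic ductal adenocarcinoma, to compare cells overexpressing the squamous differentiation marker SPRR1A with control cells. In the stable model, cells were infected with a pMXs retrovirus from Plat-A packaging cells that carried SPRR1A with a FLAG tag (stable SPRR1A) or the red fluorescent protein DsRed (stable DsRed). In the transient model, cells were transfected with a pCAG plasmid carrying SPRR1A with a FLAG tag (transient SPRR1A) or green fluorescent protein (transient GFP), and RNA was taken after 48 h. Values are given below by pair of libraries, with SPRR1A first and its control (DsRed or GFP) second. A single library stood for each condition (4 in all), so differences below have neither a replicate error nor a test, and every library came from cells that carried foreign nucleic acid by one route or the other. Neither untreated cells nor cells given transfection reagent alone were among these libraries. Whether the infected cells were a clone or a mixed population is not given in the sources used here.

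Double-stranded DNA in the cytosol is bound by MB21D1, the enzyme cGAS, which makes the second messenger cGAMP. The messenger activates the adaptor TMEM173 (STING) on the endoplasmic reticulum, the kinase TBK1 is recruited, and TBK1 phosphorylates the transcription factor IRF3, which then enters the nucleus and turns on type I and type III interferon genes. RNA in the cytosol reaches the same kinase through the adaptor MAVS on mitochondria, and RNA in endosomes reaches it through TLR3. TREX1 degrades cytosolic DNA and SAMHD1 hydrolyses deoxynucleotides, and loss of either gene is known to set off interferon production. Plasmid and retroviral DNA are both known ligands of this system, but the values here are RNA levels, and neither protein nor signalling was measured in these libraries.

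Promoters of the members were read first, since several sensors are themselves known to be induced by interferon. The RefSeq table (GRCh38.p14), which gives 250 bases before and 50 bases from each transcription start, held windows for 6 of the 10 members: IFI16, TLR3, MAVS, TBK1, TREX1 and SAMHD1. Windows were searched on both strands for the core of the interferon-stimulated response element (GAAA, any 2 bases, GAAA) and for the gamma-activated sequence (TTC, any 3 bases, GAA), which are the DNA letters bound by interferon-activated factors. The response element core was in the windows of 1 of these 6 members, TLR3, against 4.38% of all 27305 genes in the table, and TLR3 also held the gamma-activated sequence at 2 places, against 9.38% of all genes with at least 1. The 2 windows listed for IFI16 held neither, but their starts, at 159008991 and 159009907 on chromosome 1, lie downstream of the annotated 5′ end of the gene at 158999976, which was not searched. The stretches from 100 bases before to 20 bases after the listed starts of these genes, both on the plus strand, are shown because these members had the widest ranges over the libraries. TLR3 lies at chr4:186069056-186069175 and the IFI16 stretches at chr1:159008891-159009010 and chr1:159009807-159009926. Capitals mark a match to either motif.
TLR3: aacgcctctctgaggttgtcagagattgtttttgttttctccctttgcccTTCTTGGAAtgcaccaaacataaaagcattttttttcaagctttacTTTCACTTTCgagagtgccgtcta
IFI16 start 1: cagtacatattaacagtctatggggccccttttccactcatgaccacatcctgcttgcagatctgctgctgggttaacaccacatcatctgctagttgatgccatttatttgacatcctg
IFI16 start 2: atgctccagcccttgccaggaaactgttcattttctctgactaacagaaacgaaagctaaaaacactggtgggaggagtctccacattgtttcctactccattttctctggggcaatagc

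The response element core in TLR3 begins 4 bases before the start and reads on the minus strand, and the gamma-activated sequence in the printed stretch begins 50 bases before it. Its second copy begins 178 bases before the start, outside the stretch. A match is a description of letters and not of binding, and a window without a match says only that these letters are not in it.

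Values were deposited as log2 TPM, a measure per length of transcript and per fixed library total, so levels can be set side by side between genes. No value is below 0, and a TPM of 1 or less is listed at 0. Between 12964 and 13558 entities per library were above that floor, and the depth in reads is unknown. SPRR1A itself had a log2 TPM of 10.93 and 0.75 in the stable pair and of 16.60 and 3.56 in the transient pair, which matches the library labels. Keratins of ductal epithelium were abundant, with KRT7, KRT8, KRT18 and KRT19 between 11.47 and 12.94 log2 TPM in all libraries. Of the other ductal markers, EPCAM was at 8.88 to 9.16 and CDH1 at 7.03 to 7.75, whereas MUC1 was at or near the floor (0 to 0.90). The summed TPM of 7 ductal markers, most of it from these keratins, was lower in the transient (18255 and 20036) than in the stable pair (25895 and 26470), whereas 2 of the 7, CDH1 and MUC1, were higher in both transient libraries. Of 14 markers of immune cells, fibroblasts and endothelium, 11 were listed at 0 in all 4 libraries, PTPRC, CD3E, CD14, DCN, PECAM1 and CDH5 among them. The exceptions were CD68 (3.99 to 4.91 log2 TPM), LYZ (2.15 to 2.70) and COL1A1 (1.96 to 2.62). The summed TPM of the 6 immune markers was 20.3 to 22.1 in the stable and 35.7 to 36.5 in the transient libraries, most of it from CD68, a lysosomal protein, and the rest from LYZ, and its part in the results was not tested. In bulk RNA, fewer cells with a transcript and less transcript per cell cannot be told apart.

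The levels of the 10 genes fell into tiers that did not overlap over the libraries. IRF3 was highest, at 6.64 to 6.83 log2 TPM, above 88.4% to 89.4% of the entities above the floor in its library. IFI16 (5.05 to 6.15), TBK1 (5.18 to 5.56), TMEM173 (4.97 to 5.75) and MAVS (5.01 to 5.18) formed the second tier, and their ranges overlapped one another. TREX1 (4.31 to 4.69), MB21D1 (3.93 to 4.72) and SAMHD1 (3.67 to 4.10) followed. Within that tier MB21D1 overlapped both its neighbours, whereas every TREX1 value lay above every SAMHD1 value. TLR3 came next at 1.69 to 2.71, and ZBP1 was at the floor. Transcripts for each step from MB21D1 through TMEM173 and TBK1 to IRF3 were thus present in every library at a TPM of 15.3 or more.

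**Figure D1:**
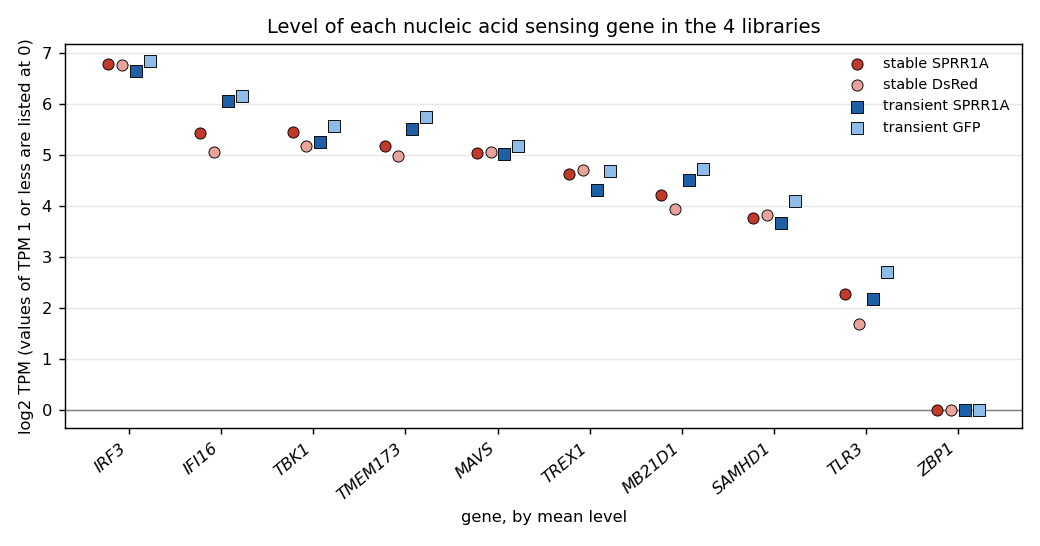
Log2 TPM (vertical axis) of each of the 10 genes (horizontal axis, by mean level) in the 4 libraries, 1 point per library, with circles for the stable and squares for the transient model. The transient points of IFI16, MB21D1 and TMEM173 lie above both stable points, IRF3 and MAVS hardly differ between libraries, and ZBP1 is at 0 throughout.

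Among the sensors, IFI16, a nuclear and cytosolic DNA-binding protein of the PYHIN family, had the widest range over the libraries. Its log2 TPM was 5.43 and 5.05 in the stable pair and 6.05 and 6.15 in the transient pair. Both transient values were higher than both stable values, and the gap between the nearest of them was 0.62. MB21D1 had values of 4.22 and 3.93, and of 4.50 and 4.72, in the same order. Here too the groups of libraries did not overlap, with a gap of 0.28. TLR3, which binds double-stranded RNA in endosomes, had 2.27 and 1.69 in the stable and 2.17 and 2.71 in the transient pair. Its groups overlapped, since the stable SPRR1A value was above the transient SPRR1A value. ZBP1, which binds Z-form nucleic acid and can start necroptosis, gave no value above the floor, so that neither a fold nor a difference can be stated.

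Of the adaptors, TMEM173 had a log2 TPM of 5.18 and 4.97 in the stable pair and 5.51 and 5.75 in the transient pair. Both transient values were above both stable values, with a gap of 0.33. MAVS had 5.03 and 5.06 in the stable and 5.01 and 5.18 in the transient pair, the narrowest range of the 9 genes above the floor (0.17). The kinase TBK1 had 5.45 and 5.18 in the stable and 5.26 and 5.56 in the transient pair, and its groups overlapped. IRF3 had 6.77 and 6.75 in the stable and 6.64 and 6.83 in the transient pair, a range of 0.19. The 2 genes that limit sensing also overlapped between models. TREX1 had 4.62 and 4.69 in the stable and 4.31 and 4.68 in the transient pair, lowest in transient SPRR1A cells, and SAMHD1 had 3.75 and 3.83 in the stable and 3.67 and 4.10 in the transient pair, highest in transient GFP cells.

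Ratios within a library do not depend on how the library was scaled. TMEM173 was above MB21D1 by 0.96 and 1.04 on the log2 scale in the stable pair and by 1.01 and 1.03 in the transient pair. The adaptor and the enzyme that makes its ligand thus kept nearly the same ratio, while both differed between libraries. IFI16 relative to IRF3 was -1.34 and -1.70 in the stable libraries and nearer to it in the transient ones, at -0.59 and -0.68. MB21D1 relative to IRF3 was -2.56 and -2.81 in the stable and -2.14 and -2.11 in the transient libraries. TREX1 relative to MB21D1 was 0.41 and 0.76 in the stable libraries and -0.19 and -0.04 in the transient ones, so the nuclease was above the sensor in the stable libraries only. TBK1 relative to IRF3 gave -1.32 and -1.57 in the stable and -1.39 and -1.27 in the transient libraries, with overlapping groups.

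The study's own comparison asks what SPRR1A overexpression changes. A gene was called past the threshold when its log2 difference was above 1 or below -1, the 2-fold rule of the study, and an entity counted as tested when either library of the pair had it above the floor. Between stable SPRR1A and stable DsRed cells, 0 of the 9 members above the floor were past the threshold in either direction, where 0.947% of all 13310 tested entities were. The differences ran from -0.08 for SAMHD1 to 0.58 for TLR3, with 6 above and 3 below 0. Their median was 0.20, against 0.07 for all tested entities. Between transient SPRR1A and transient GFP cells, 0 of 9 were past the threshold, against 0.889% of 13717 tested entities. All 9 differences were below 0, from -0.53 for TLR3 to -0.09 for IFI16, and their median of -0.24 lay close to the -0.19 of all tested entities. Only 5.86% of the well expressed entities, those at a TPM of 5 or more in each library, were above 0 in that comparison.

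Each comparison was therefore also centred on the median difference of these well expressed entities. The median was 0.06 for SPRR1A against DsRed, -0.18 for SPRR1A against GFP, 0.12 for transient against stable controls and -0.11 for the same comparison of the SPRR1A libraries. After centring, 2 members were above and 7 below 0 in the transient model, where IFI16 turned to 0.09 and MAVS to 0.02. In the stable model 5 were above and 4 below. TLR3, the lowest member above the floor, was 0.52 above its control in the stable model and -0.35 relative to it in the transient model. TBK1 likewise differed by 0.22 and -0.12, MB21D1 by 0.22 and -0.04, and TMEM173 by 0.14 and -0.05. MAVS went the other way, with -0.08 and 0.02, and IFI16, IRF3, TREX1 and SAMHD1 kept their sign. With 1 library each, these signs were not tested.

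**Figure D2:**
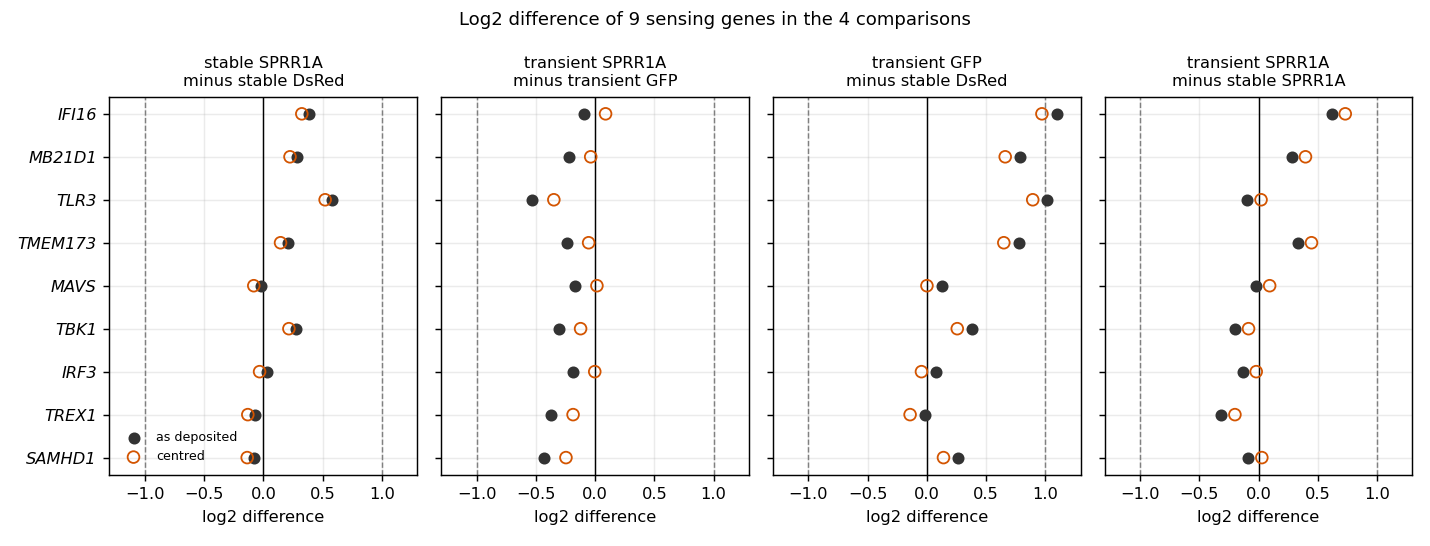
Log2 difference (horizontal axis) of the 9 genes above the floor (vertical axis) in the 4 comparisons, as deposited (filled) and centred on the median of well expressed entities (open), with dashed lines at the 2-fold threshold. In the 2 comparisons of SPRR1A with its control all points lie inside the threshold, and between the controls IFI16 and TLR3 lie past it as deposited and inside it after centring.

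The 2 models were then set against each other, since plasmid transfection and retroviral infection bring different nucleic acid into the cell. Vector, delivery and culture history all differ between the models. The controls differ in reporter protein as well. Both comparisons also differ in the level of SPRR1A. It was at 16.60 log2 TPM in transient SPRR1A and 10.93 in stable SPRR1A cells, and at 3.56 in transient GFP and 0.75 in stable DsRed cells. These differences cannot be told apart. The comparisons share libraries with those above and are not independent of them. Between transient GFP and stable DsRed cells, 2 of 9 members were past the threshold as higher and 0 as lower, against 6.86% higher and 0.661% lower of 13761 tested entities. They were IFI16, with a log2 difference of 1.10 (2.14-fold), and TLR3, with 1.02 (2.03-fold). MB21D1 (0.79) and TMEM173 (0.77) were past 1.5-fold, which made 4 of 9 members at that threshold, against 19.9% of all tested entities. The other members were between -0.02 for TREX1 and 0.38 for TBK1, so that the 4 highest differences were those of the sensors above the floor and of TMEM173. The median of the members was 0.38, and that of all tested entities 0.18. After centring, IFI16 was at 0.97 and TLR3 at 0.89, and 0 of 9 were past the 2-fold threshold.

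Between transient SPRR1A and stable SPRR1A cells, the other pair that differs in delivery, 0 of 9 members were past the 2-fold threshold, against 2.61% higher and 0.974% lower of 13549 tested entities. IFI16 was the 1 member past 1.5-fold, where 7.61% of the tested entities were, with a difference of 0.62 (1.53-fold) as deposited and 0.73 after centring. TMEM173 followed with 0.33 and 0.45, and MB21D1 with 0.28 and 0.40. TLR3 was at -0.09 as deposited and 0.02 after centring, where the controls had differed by 1.02 and 0.89, and this contrast between the comparisons was not tested. The median of the members was -0.09, close to -0.08 for all tested entities. It turned to 0.03 after centring and to 0.06 when SPRR1A, very abundant in the transient library, was left out of the TPM total.

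Taking the models as a whole, 3 of the 9 members above the floor (IFI16, MB21D1 and TMEM173) were higher in both transient than in both stable libraries, and 0 were lower in both. Over the 13944 entities that any library held above the floor, 33.5% were higher in both and 26.2% lower in both. A share of 3 in 9 is therefore no more than that of all entities.

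**Figure D3:**
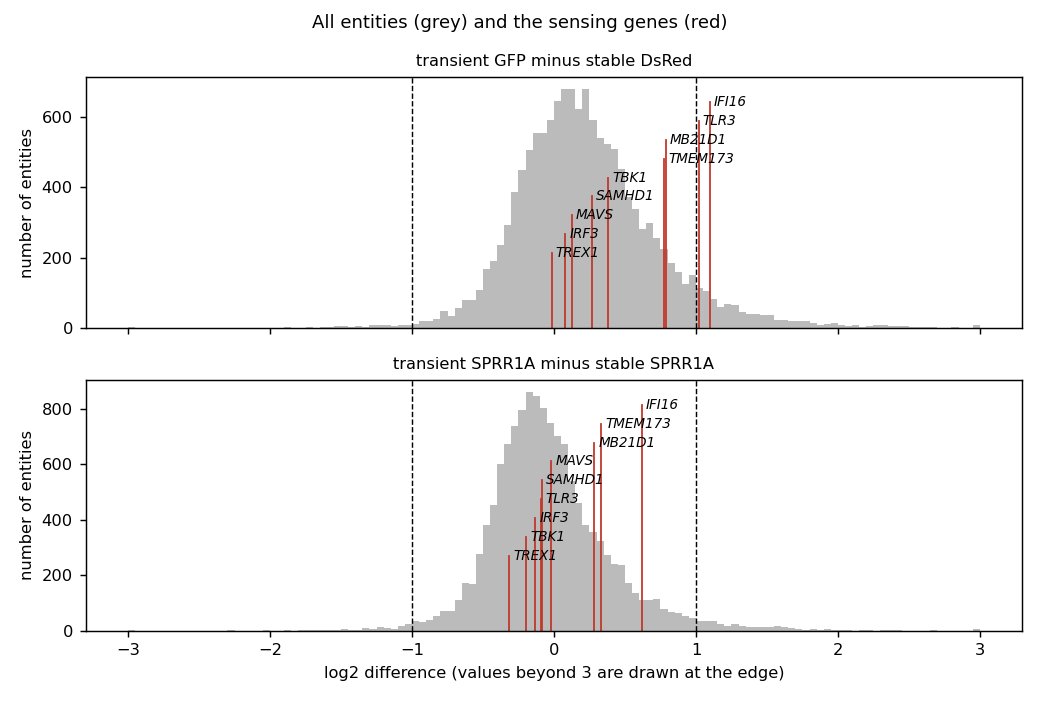
Histogram of the log2 differences of all tested entities (grey, number of entities on the vertical axis) with the 9 members as red lines whose heights serve only to separate the labels, for the controls (top) and the SPRR1A libraries (bottom), and dashed lines at the 2-fold threshold. IFI16 has the highest difference of the members in both panels, and TMEM173 and MB21D1 also lie above the median of all tested entities in both. TLR3 lies on the upper side in the top panel and close to that median in the bottom panel.

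Entities with the pattern most like that of IFI16 over the 4 libraries were sought among 9547 entities well expressed in all 4 libraries, small RNAs left out, by the Euclidean distance of log2 values centred on each gene's mean. They were BEX2 (distance 0.03), HSPB8 (0.05) and CCDC80 (0.05). With only 4 libraries such likeness is a description.

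Annotation touches several of these values. IFI16 spans chromosome 1 from 158999976 to 159055151, MB21D1 chromosome 6 from 73423711 to 73452297, TLR3 chromosome 4 from 186069156 to 186088073, and TMEM173 chromosome 5 from 139475533 to 139482758 in the RefSeq annotation of GRCh38. MAVS spans chromosome 20 from 3846834 to 3876118, TBK1 chromosome 12 from 64452120 to 64502114, IRF3 chromosome 19 from 49659572 to 49665857, SAMHD1 chromosome 20 from 36889773 to 36951708, and ZBP1 chromosome 20 from 57603852 to 57620426. TREX1, on chromosome 3 from 48465830 to 48467645, lies on the same strand within the span of ATRIP in GENCODE 44, so its reads can be shared with that gene. ATRIP had 3.42 and 3.33 log2 TPM in the stable pair and 2.87 and 3.02 in the transient pair. A long noncoding RNA on the same strand overlaps the 3′ end of TBK1 in that annotation. In GENCODE 44, where MB21D1 extends to 73413515, it overlaps DDX43 on the opposite strand, which ends at 73417566. On the RefSeq span given above the 2 genes do not overlap. DDX43 had 2.70 and 2.43 in the stable and 3.39 and 3.53 in the transient pair, higher in both transient libraries as MB21D1 was. IRF3 overlaps BCL2L12 on the opposite strand (6.08 and 6.12 in the stable, 5.58 and 5.72 in the transient pair). The libraries were stranded, but whether strand was used in counting is not given in the sources used here, and the part of these overlaps in the values was not tested.

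The rest of the pathway was read from 7 lists of 86 genes, all of which were in the tables and 16 of which were listed at 0 in all 4 libraries. Among 13 other DNA sensors, AIM2, the sensor of the DNA inflammasome, and TLR9, the endosomal receptor for CpG DNA, were listed at 0 in every library. XRCC6, the Ku70 subunit of the DNA-dependent protein kinase, was highest at 9.37 to 9.67 log2 TPM and the nuclease MRE11 lowest at 3.69 to 4.05. None of the 11 above the floor was past the 2-fold threshold in any of the 4 comparisons. Of all tested entities, 0.947% (stable) and 0.889% (transient) were past it between SPRR1A and its control. Between the models, 6.86% were higher and 0.661% lower for the controls, and 2.61% and 0.974% for the SPRR1A libraries. With 11 genes a count of 0 lies near these shares. Their median difference between the controls was 0.06, below the 0.38 of the members and the 0.18 of all tested entities.

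Of 10 RNA sensors, 8 were above the floor. Between transient GFP and stable DsRed cells, 4 of these were higher past 2-fold, against 6.86% of all tested entities, and 0 were lower. The median difference was 0.97, where that of the members was 0.38. OAS2, an oligoadenylate synthetase activated by double-stranded RNA, had 1.23 and 0.78 log2 TPM in the stable pair and 3.09 and 3.55 in the transient pair. DDX58, the receptor RIG-I for RNA with a 5′ triphosphate, had 2.63 and 2.60 in the stable and 3.89 and 4.11 in the transient pair. IFIH1, the receptor MDA5 for long double-stranded RNA, had 2.89 and 2.75 in the stable and 3.84 and 4.18 in the transient pair, and DHX58, their regulator LGP2, had 1.85 and 2.12 in the stable and 3.30 and 3.46 in the transient pair. For all 4 genes both transient libraries were higher than both stable ones. Over the list, 5 of the 8 were higher in both and 1 lower in both, against 33.5% and 26.2% of all entities above the floor in any library. Like the others, this list was chosen with earlier results of these libraries known and is not independent evidence of its direction. Between the SPRR1A libraries 3 of these 4 genes were past the threshold, where 2.61% of all tested entities were higher. IFIH1 was at 0.95 as deposited and past the threshold after centring, with 1.06. OAS3 was the highest of the list by its mean (5.73 to 6.32), with OAS1 above it in stable DsRed cells (5.85), while TLR7 and TLR8 were listed at 0. Between SPRR1A and its control, 0 of 8 were past the threshold in either model.

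Of 24 adaptors, kinases and transcription factors, 22 were above the floor in the transient libraries. Past the threshold between the controls, where 6.86% of all tested entities were higher, was 1 of these. This was TICAM1, the adaptor TRIF that carries the TLR3 signal, with 3.68 and 3.36 log2 TPM in the stable pair and 4.25 and 4.63 in the transient pair (log2 difference 1.27). It was higher by 0.57 between the SPRR1A libraries, inside the threshold. TRIM25, the ubiquitin ligase that acts on RIG-I, was the highest of the list by its mean (6.23 to 6.51), with RELA, a subunit of NF-κB, above it in transient SPRR1A cells (6.34), and TBKBP1, a TBK1-binding scaffold, the lowest, listed at 0 in both stable libraries and at 0.82 and 0.64 in transient SPRR1A and transient GFP cells. MYD88, the adaptor of most Toll-like receptors but not of TLR3, and NLRC3, which restrains TMEM173, were listed at 0 in every library. A 0 in these tables can stand for a failed estimate as well as for a low level. Of 128 genes for ribosomal proteins, proteasome subunits and RNA polymerase II subunits, 3 were listed at 0 throughout, and these were PSMB11, PSMA8 and RPL10L, forms known from thymus or testis.

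Of 7 further genes that remove or shield self nucleic acid, 0 were past the threshold in any comparison. BANF1, which coats DNA and keeps cGAS from it, was highest at 7.98 to 8.56 log2 TPM, and RNASEH2B, a subunit of ribonuclease H2, lowest by its mean (4.38 to 4.97). In both stable libraries the lysosomal nuclease DNASE2 was lower, at 4.67 and 4.71. ENPP1, which degrades cGAMP outside the cell, was listed at 0 throughout. The median of the list between the controls was -0.14, on the other side of 0 from that of the members.

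Interferon transcripts themselves were low or at the floor. Of 8 ligands, IFNB1, IFNA1, IFNA2, IFNK, IFNL2 and IFNL3 were listed at 0 in all libraries, and IFNL1 was above the floor only in transient GFP cells, at 0.29 log2 TPM. IFNE, an epithelial type I interferon, had 0.96 and 1.20 in the stable pair and 0.94 and 1.58 in the transient pair, with overlapping groups. All 9 genes for interferon receptors and their signalling were above the floor, from IFNAR2 (as low as 0.99, in transient SPRR1A cells), a chain of the type I receptor, to the kinase JAK1 (5.09 to 5.80), the highest by its mean over the libraries though not in each of them. IRF9, the DNA-binding part of the factor ISGF3, was the 1 gene of these 9 past the threshold between the controls. Of all tested entities, 6.86% were higher past it. IRF9 had 3.92 in stable DsRed and 5.03 in transient GFP cells (log2 difference 1.10, and 0.98 after centring). In stable SPRR1A and transient SPRR1A cells it had 4.06 and 4.50, a difference of 0.44.

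Among 15 targets of the pathway, 12 had a value above the floor. Of these, 9 were past the threshold as higher in transient GFP than in stable DsRed cells, against 6.86% of all tested entities. Between the SPRR1A libraries 8 were, against 2.61%, and 0 were lower in either comparison. OASL had 4.18 and 4.16 log2 TPM in the stable pair and 7.45 and 7.53 in the transient pair, and ISG20 had 2.69 and 2.59 in the stable and 4.70 and 4.93 in the transient pair. IFIT2 and IFIT3, antiviral proteins of the IFIT family, were higher by 3.09 and 2.27 between the controls and by 2.51 and 2.07 between the SPRR1A libraries. ISG15, a ubiquitin-like modifier, was the highest target by its mean over the libraries (7.94 to 9.62), although BST2, which tethers budding virus, was above it in both stable libraries (8.21 and 8.23), and RSAD2, the antiviral enzyme viperin, the lowest (0 to 1.25). CXCL10, MX1 and MX2 were listed at 0 throughout. The median target difference was 1.76 for the controls and 1.53 for the SPRR1A libraries. Of the 12, 10 were higher in both transient than in both stable libraries and 1 was lower in both. Of all entities above the floor in any library, 33.5% were higher in both and 26.2% lower in both. The list was drawn up with earlier results of these libraries known and is not independent evidence of its direction. The response element core was in the promoter windows of all 10 targets that had a window, MX1 and CXCL10 included. Since these genes were listed as targets of the pathway, that share follows from the choice of the list and says nothing about these libraries. The core was in those of 3 of 6 RNA sensors (IFIH1, EIF2AK2 and OAS3) and 4 of 8 interferon ligands, against 4.38% of all genes. It was also in 2 of 11 other DNA sensors and 3 of 20 adaptors, kinases and transcription factors. None of 7 limiters and none of 7 receptor and signalling genes held it. The gamma-activated sequence was in 2 of 10 targets, 1 of 6 RNA sensors, 4 of 8 ligands and 3 of 7 receptor and signalling genes. It was in 3 of 20 adaptors, kinases and transcription factors and in 0 of the other DNA sensors and limiters, against 9.38% of all genes. Of IFIH1, EIF2AK2 and OAS3, only IFIH1 was past 2-fold between the controls, with EIF2AK2 at 0.52 and OAS3 at 0.59. Of the other RNA sensors past 2-fold there, DDX58 had a window without the core, and OAS2 and DHX58 had no window.

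**Figure D4:**
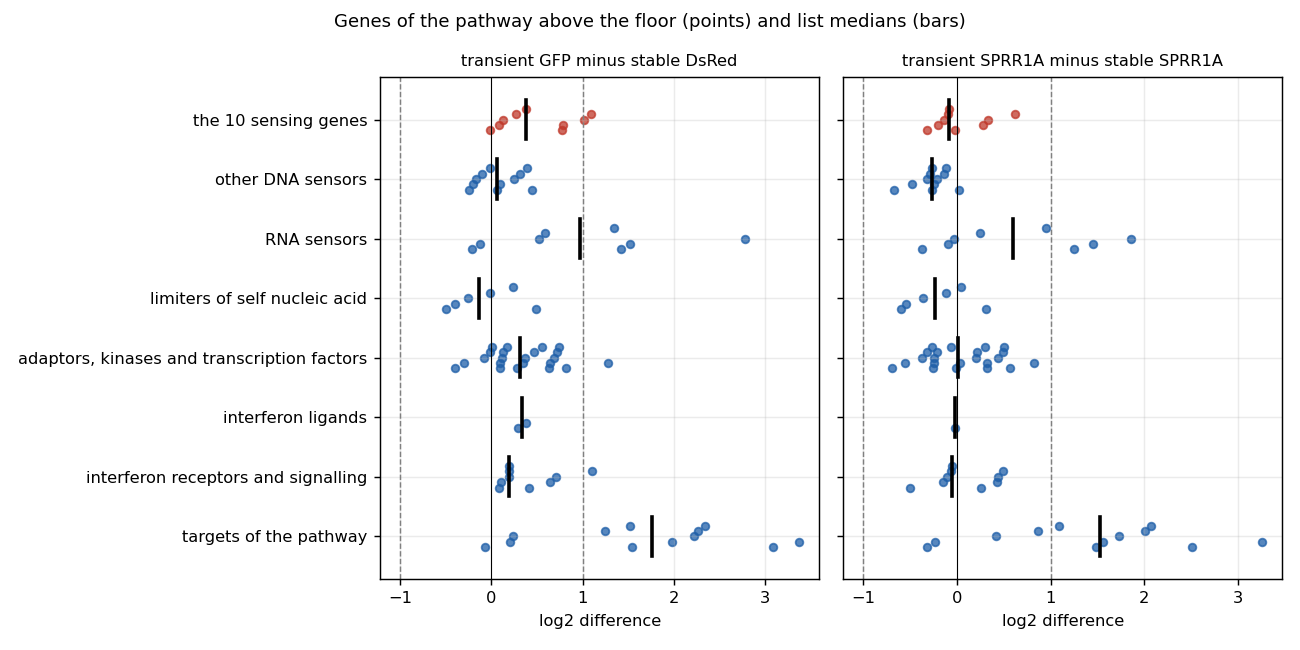
Log2 differences (horizontal axis) of the genes above the floor in the 10 members (red) and the 7 other lists (blue), 1 point per gene with a bar at the list median, for the controls (left) and the SPRR1A libraries (right), and dashed lines at the 2-fold threshold. RNA sensors and targets reach far past the threshold in both panels, whereas the members past it are IFI16 and TLR3 in the left panel.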

How the data were processed

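Paired-end reads of 4 stranded mRNA libraries were mapped by the authors to hg38 transcripts in Strand NGS under its defaults. The authors deposited log2 TPM values per gene. Software version, annotation release and the treatment of multiply mapped reads are not given in the sources used here. The deposited log2 values stop at 0, which hides changes below a TPM of 1, and carry no read counts, so depth and counting error are unknown.

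From these values log2 differences were computed here and called at 2-fold, with no test. RefSeq (GRCh38.p14) and GENCODE 44 gave positions. Members and lists were chosen with earlier results of these data known. Named genes were all members, the genes of a list past 2-fold (at most 4 per list and comparison), those listed at 0 in all libraries, and the highest and lowest of each list, 1 of which is not reported here. A planned look at protein motifs was not made. The calculation was tested on simulated data. The simulated differences were larger than any of the members, and the added noise was smaller than the spread between the models. That test thus checks the arithmetic and not the calls made here. Python 3.11.15, numpy 2.4.6, pandas 2.3.3 and matplotlib 3.10.9 were used.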

Additional observations from a re-analysis of the deposited data

How the results depend on the processing

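No paired analysis was possible because a single library stands for each condition, and for the same reason none could be left out. Between transient GFP and stable DsRed cells, 2 of 9 members were higher past the threshold, against 6.86% of all tested entities. The count was 1 under log2(TPM + 1), under log2(TPM + 0.1), with the floor set to a TPM of 0 before log2(TPM + 1), and when both libraries had to reach a TPM of 5, since TLR3 then fell inside the threshold or was not tested. It was 0 after centring and 4 at a 1.5-fold threshold, which 19.9% of all tested entities passed as higher. At 1.5-fold, 1 member was higher between the SPRR1A libraries, against 7.61% of all tested entities. Of 70 tested genes in the pathway lists, 24 were higher between the controls at 1.5-fold, against 19.9%, in place of 15 at 2-fold, against 6.86%. Of 69 tested, 3 were lower between the SPRR1A libraries at 1.5-fold in place of 0. In transient SPRR1A against transient GFP cells 1 of 70 (IFNE) was lower at 1.5-fold in place of 0, as was 1 gene with the floor set to a TPM of 0. Shares of all entities were not computed for lower counts at 1.5-fold or for the other settings. The median difference of the members between transient SPRR1A and transient GFP cells, -0.24, became -0.055 after centring and -0.087 when TPM was rescaled without SPRR1A. Both alternatives shift every gene of a comparison alike, and with no replicates there is no error to set that shift against. No direction was reversed among differences past the threshold. A minimum TPM of 1 for the higher library changes nothing, since the floor already sets it. Values near the floor, such as those of TLR3, IFNL1 and TBKBP1, are the least precise.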

Other observations

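Some genes of the pathway lists were lower in the transient libraries, all inside the 2-fold threshold. Between transient SPRR1A and stable SPRR1A cells, MLKL, the effector of necroptosis downstream of ZBP1, differed by -0.69, PRKDC, the catalytic subunit of the DNA-dependent protein kinase, by -0.67, and RNASEH2B by -0.59. Between the controls the differences were -0.40, -0.11 and -0.26. RIPK3, the kinase that joins ZBP1 to MLKL, was at 1.90 to 2.27 log2 TPM over the libraries, while ZBP1 was listed at 0. These genes were picked after their values were seen.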
